A study of Mus musculus with 12 samples.

Results

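E proteins, the Id proteins that bind them, and Blimp-1 were followed in follicular T helper (Tfh) cells as 6 genes picked by symbol from the 24561 genes of the count table: the inhibitors *Id2* and *Id3*, the E protein genes *Tcf3*, *Tcf12* and *Tcf4*, and *Prdm1*, which encodes Blimp-1. RNA came from CXCR5hiPD-1hi OT-II cells, T cells with a transgenic receptor for ovalbumin on the C57BL/6 background, that had been transferred into SAP-deficient recipients and sorted out of the draining nodes on day 3 after subcutaneous immunization with NP-OVA and LPS in alum. One group carried *Cd4-cre* with a floxed *Bcl6* allele over an intact one (CD4-CrexBcl6fl/+, labelled BCL6-insufficient), and the control group carried *Cd4-cre* alone (CD4-Cre, labelled wild-type), so that both groups expressed Cre in all T cells from the *Cd4* promoter. Each group had 3 recipient mice with 2 technical repeats of about 200 cells each, 12 libraries in all. SAP is an adaptor that T cells need for lasting contact with B cells, and host T cells were without it. The number of donor mice is not given, so recipients of a group may share a donor and the p-values measure only the spread between these recipients.

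E proteins are basic helix-loop-helix transcription factors that bind the E-box motif as dimers. *Tcf3* encodes E12 and E47, *Tcf12* encodes HEB and *Tcf4* encodes ITF2, and the symbols should not be confused with the Wnt effectors *Tcf7l1* and *Tcf7l2*. Id proteins have the helix-loop-helix part but no DNA-binding region, so they form dimers with E proteins that cannot bind DNA. In CD4 T cells, E proteins favor *Cxcr5* and the follicular program, Id2 and Id3 restrain them, BCL6 can repress *Id2*, and Blimp-1 and BCL6 repress each other's genes.

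Libraries held between 3343375 and 8315722 counts. Of 12719 genes that passed edgeR's expression filter, 2288 were called at an adjusted p under 0.05 (edgeR quasi-likelihood test, Benjamini-Hochberg adjustment), which is 18.0%. By direction, 9.17% of the tested genes were called higher under the BCL6-insufficient label and 8.82% were called lower, and the median log2 fold change of all tested genes was 0.011. T cell genes were high in every library, with summed normalized CPM (CPM, counts scaled to library size with TMM factors) of 8790 to 9680 per mouse labelled BCL6-insufficient and 6270 to 7720 per mouse labelled wild-type. *Trac*, the constant segment of the T cell receptor alpha chain, made up most of these sums and was called higher (means 7010 and 4770, edgeR adjusted p = 0.000151), while *Cd4* was called lower and the other 4 did not pass. The 8 Tfh genes summed to 1610 to 1660 and 1600 to 1690, but 5 of them were called and in both directions, with *Bcl6* and *Icos* higher (log2 fold changes 1.25 and 0.64) and *Tox2*, *Pdcd1* and *Cxcr5* lower (-0.80, -0.42 and -0.40). Markers of other cells were partly present. The 10 B cell markers summed to 506 to 695 and 598 to 833, mostly from *Ighm* (means 533 and 655), with *Cd74* up to 94.7, *Igkc* up to 22.9 and *Cd79a* up to 19.8 in single libraries, while *Ms4a1*, *Pax5* and *Ebf1* did not exceed 2.86 in any library. The 6 plasma cell markers summed to 80.5 to 111 and 70 to 109, with *Derl3* called higher (9.33 against 4.36, edgeR adjusted p = 0.0251) and *Jchain* and *Mzb1* at 0. The 6 plasmacytoid dendritic cell markers summed to 48.2 to 67.3 and 53.3 to 83.6, with *Irf8* called lower (18.6 against 31.4, edgeR adjusted p = 0.026) and *Siglech* not above 0.401. *Cd8b1* was at 19.1 to 48.6 in every library and *Cd8a* not above 0.355.

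The gene that the labels target went against them. *Bcl6* stood between 138 and 166 normalized CPM (median 148) in the 6 libraries labelled BCL6-insufficient and between 46.6 and 100 (median 59.6) in the 6 labelled wild-type. The libraries did not overlap, and the transcript was higher under the label of the heterozygous deletion (log2 fold change 1.25, edgeR adjusted p = 6.3e-07). Reads were counted over all of *Bcl6*, so transcript of an allele that had lost its floxed part is not told apart here. Whether the labels were exchanged was not tested either, and every direction below rests on them.

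Of the 5 members that passed the filter, *Id2* was called higher and *Tcf3* was called lower under the BCL6-insufficient label, and *Id3*, *Tcf12* and *Tcf4* did not pass the test. These 2 calls of 5 stand against 18.0% of all tested genes. *Prdm1* was too scarce to pass the filter and was not tested in this fit. The mice of the labels did not overlap for *Id2*, *Tcf3* and *Tcf12*, as for 34.4% of all tested genes. The exact two-sided permutation test over 3 against 3 mice gave 0.1 for these 3 genes, the smallest p it can give. In bulk RNA, fewer cells with a transcript and less of it per cell cannot be told apart.

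**Figure D1:**
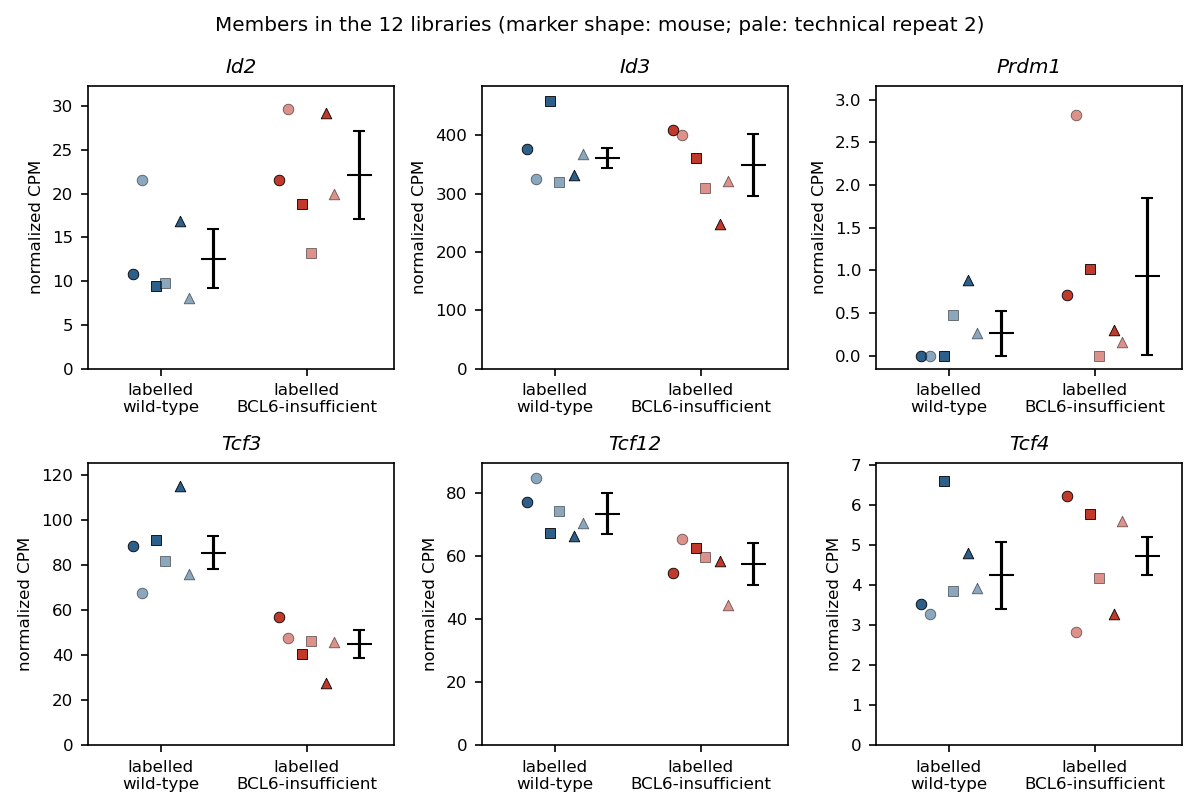
Normalized CPM of the 6 members (vertical axes, 1 panel per gene) in the 12 libraries by label, with marker shape for the mouse, pale markers for technical repeat 2, and the mean and SD of 3 mice as black bars. *Tcf3* libraries labelled BCL6-insufficient all sit at or below 56.9 and those labelled wild-type at or above 67.7, *Id2* libraries overlap, and 1 library stands alone for *Prdm1* at 2.82.

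Among the inhibitors, *Id2* was the one that rose. Its normalized CPM was 26.4, 16.6 and 23.3 in the mice labelled BCL6-insufficient and 16.2, 9.6 and 11.8 in the mice labelled wild-type. The lowest mouse of the first group was just above the highest of the second, and the single libraries overlapped, from 13.2 to 29.7 (median 20.8) against 8.1 to 21.6 (median 10.3). The means were 22.1 ± 5.02 and 12.5 ± 3.37 (SD, n = 3 mice each), a 1.77-fold difference with a 95% interval of 1.27 to 2.46 (log2 fold change 0.82, standard error 0.23, edgeR adjusted p = 0.0145). The call was lost without BCL6-insufficient mouse 1 (adjusted p = 0.0878), without wild-type mouse 2 (0.0847) and without wild-type mouse 3 (0.0621), and in 7 of 20 alternatives in all, though the direction held in every one. The repeats of a mouse differed by a median of 1.44-fold for *Id2*.

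Innate lymphoid and myeloid cells also express *Id2*, although a sort of CXCR5hiPD-1hi OT-II T cells should remove them. Summed over 8 dendritic or myeloid markers, the mice labelled BCL6-insufficient reached 107 to 112 normalized CPM and those labelled wild-type 84.2 to 90.6. Most of it came from *Cst3*, and 34.4% of all tested genes likewise did not overlap by mouse. Of the 4 markers tested, 1 was called, beside 18.0% of all tested genes. It was *Lyz2*, the lysozyme of myeloid cells, at 7.77 ± 7.52 against 1.24 ± 1.02 normalized CPM (SD, n = 3 mice each, edgeR adjusted p = 0.00531). A single library held 160 of the 344 *Lyz2* counts. *Flt3* was at or near 0 and *Csf1r* at 9.09 and 5.33. Over 4 natural killer or innate lymphoid markers the sums were 85.5 to 106 and 81.7 to 102, nearly all from *Gata3*, which Tfh cells can express, and none of the 3 tested passed. Their part in the *Id2* difference was not tested.

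*Id3*, the inhibitor known for restraining Tfh and germinal center programs, was abundant and did not differ detectably. It reached 404, 342 and 299 normalized CPM in the mice labelled BCL6-insufficient and 350, 381 and 351 in those labelled wild-type. The groups overlapped, with the highest and the lowest mouse both labelled BCL6-insufficient. The fold was 0.966 with a 95% interval of 0.834 to 1.12 (edgeR adjusted p = 0.792), and the estimate changed sign in 4 of 20 alternatives.

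*Tcf3* showed the clearest difference of the family. The mice labelled BCL6-insufficient held 51.6, 42.8 and 39.9 normalized CPM and the mice labelled wild-type 77.8, 85.7 and 92.5. No library of one label reached the other, with 27.7 to 56.9 (median 45.9) against 67.7 to 115 (median 85.2). The means were 44.8 ± 6.10 and 85.3 ± 7.34 (SD, n = 3 each). *Tcf3* under the BCL6-insufficient label was thus at 0.526 of its level under the wild-type label, with a 95% interval of 0.437 to 0.633 (log2 fold change -0.93, standard error 0.13, edgeR adjusted p = 3.89e-05). It ranked 92 of 12719 genes by p and passed the test in 20 of 20 alternatives, with log2 fold changes from -1.22 to -0.69.

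*Tcf12* lay on the same side and missed the threshold. Its normalized CPM was 61.1, 61.5 and 49.7 in the mice labelled BCL6-insufficient and 80.8, 71 and 68.6 in the mice labelled wild-type. The mice did not overlap, and the means were 57.4 ± 6.73 and 73.5 ± 6.46 (SD, n = 3 each). The fold was 0.783 with a 95% interval of 0.653 to 0.939 (edgeR adjusted p = 0.0555). In 8 of 20 alternatives *Tcf12* passed, among them DESeq2 (adjusted p = 0.0397), and it stayed negative in all 20.

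*Tcf4* was scarce, with 11 to 40 counts per library. Mice labelled BCL6-insufficient held 4.22, 5.16 and 4.83 normalized CPM and mice labelled wild-type 3.39, 5.07 and 4.28. The groups overlapped, and the interval of the fold, from 0.662 to 1.87, was wide, so no difference was detectable at this depth (edgeR adjusted p = 0.815).

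**Figure D2:**
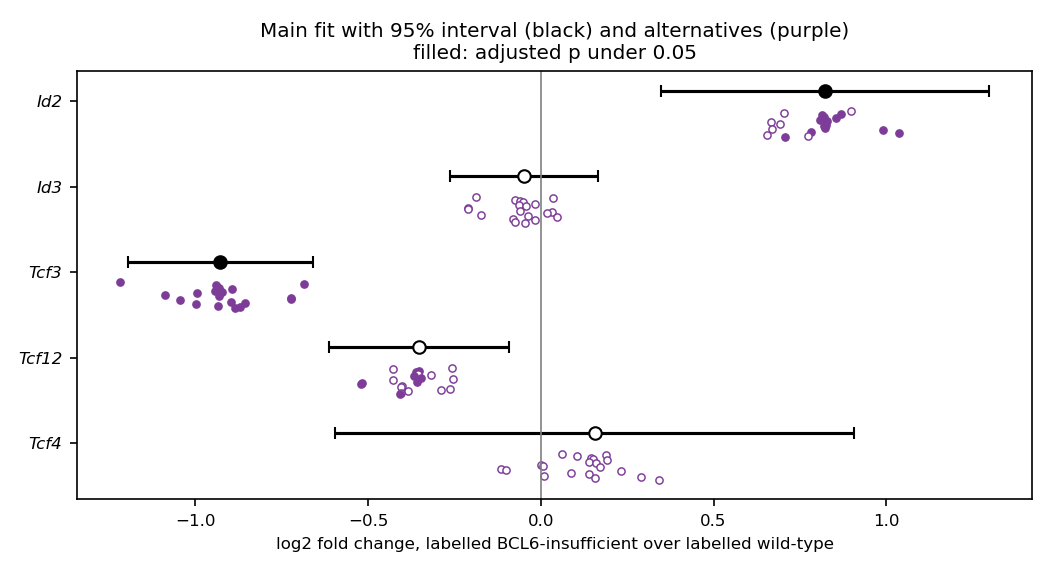
Log2 fold change of the 5 tested members (horizontal axis, labelled BCL6-insufficient over labelled wild-type), with the main estimate and its 95% interval in black and 20 alternative analyses in purple, filled where the adjusted p is under 0.05. *Tcf3* is filled throughout, *Id2* in 13 and *Tcf12* in 8 alternatives, and *Id3* and *Tcf4* lie on both sides of 0.

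Levels were compared between genes as normalized CPM per kilobase of the longest GENCODE transcript. *Id3* led with means of 272 (labelled BCL6-insufficient) and 282 (labelled wild-type) CPM per kb. *Tcf3* came next at 15.2 and 28.9, followed in the mice labelled wild-type by *Tcf12* at 11.7 and *Id2* at 6.36, whose mice did not overlap. In the mice labelled BCL6-insufficient *Id2* stood at 11.2 and *Tcf12* at 9.12 CPM per kb, and these neighbors did overlap, from 8.44 to 13.4 and from 7.88 to 9.76. *Tcf4* (0.552 and 0.495) and *Prdm1* (0.176 and 0.05) were at the bottom. With the summed exon length in place of the longest transcript, *Id2* stood above *Tcf12* under both labels, at 5.14 against 4.73 CPM per kb in the mice labelled wild-type, where the mice overlapped, so their order depends on the transcript length chosen.

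**Figure D3:**
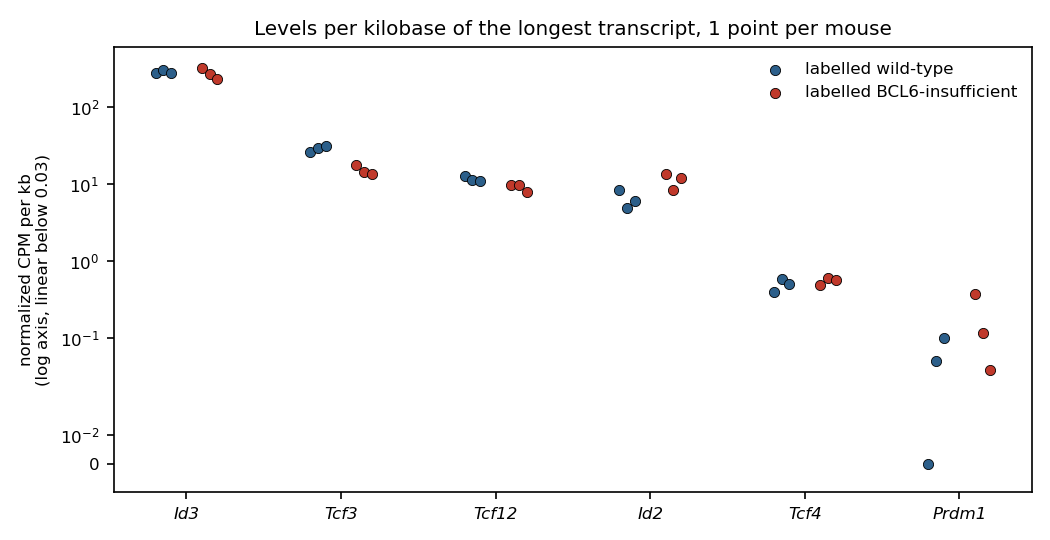
Normalized CPM per kilobase of the longest transcript (log axis, linear below 0.03), 1 point per mouse, for the 6 members in order of their level under the wild-type label. *Id3* lies above 200 in every mouse, *Tcf3*, *Tcf12* and *Id2* between 4.88 and 31.4, and *Tcf4* and *Prdm1* below 1.

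Ratios within a mouse do not depend on library scaling. The summed *Id2* and *Id3* level per kb was 11.9, 11.1 and 11.2 times the summed E protein level in the mice labelled BCL6-insufficient and 7.12, 7.4 and 6.57 times in the mice labelled wild-type. The libraries did not overlap either, from 9.76 to 12.2 against 5.33 to 8.59. *Id3* makes up most of the first sum and *Tcf3* most of the second, so the ratio mostly restates the fall of *Tcf3*. The Id sums overlapped, at 330, 276 and 246 CPM per kb against 282, 303 and 281, while the E protein sums did not, at 27.7, 24.9 and 22 against 39.6, 40.9 and 42.7.

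The make-up of both families also differed, which mostly restates the rise of *Id2* and the fall of *Tcf3* given above. *Id3* was 23.6, 31.7 and 19.7 times *Id2* per kb in the mice labelled BCL6-insufficient and 33.3, 61.1 and 45.9 times in those labelled wild-type. *Tcf12* relative to *Tcf3* was 0.555, 0.672 and 0.583 against 0.486, 0.388 and 0.347. The mice did not overlap in either ratio, but the libraries did. *Tcf3* supplied 63.2, 58.4 and 61.6% of the E protein level per kb under the first label and 66.6, 71 and 73.4% under the second. These ratios are descriptions and were not tested.

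**Figure D4:**
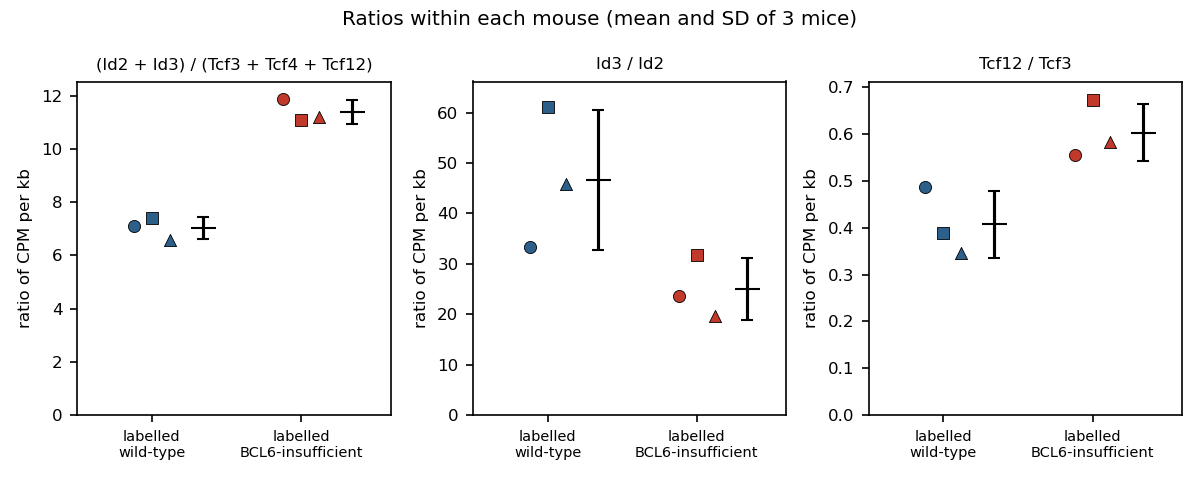
Ratios of normalized CPM per kb within each mouse (vertical axes) by label, with 1 marker per mouse and the mean and SD of 3 mice as black bars. The ratio of Id to E protein genes is 11.1 to 11.9 in the mice labelled BCL6-insufficient and 6.57 to 7.4 in the mice labelled wild-type.

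The promoters of *Id2* and *Tcf3*, the members that passed the test in opposite directions, are shown because both hold an E-box, the motif that E proteins bind. RefSeq windows of GRCm38.p6 from 250 bases before to 50 bases after the start site matched 5 of the 6 members, and capitals mark CANNTG, searched on both strands, on which it reads alike.

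Id2, chr12:25096043-25096342, minus strand: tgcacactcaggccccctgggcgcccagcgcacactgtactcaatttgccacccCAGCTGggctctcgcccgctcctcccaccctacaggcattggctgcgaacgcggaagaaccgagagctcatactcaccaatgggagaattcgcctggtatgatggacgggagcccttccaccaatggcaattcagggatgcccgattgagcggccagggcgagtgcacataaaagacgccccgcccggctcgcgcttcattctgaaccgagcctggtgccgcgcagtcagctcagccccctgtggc

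Tcf3, chr10:80433586-80433885, minus strand: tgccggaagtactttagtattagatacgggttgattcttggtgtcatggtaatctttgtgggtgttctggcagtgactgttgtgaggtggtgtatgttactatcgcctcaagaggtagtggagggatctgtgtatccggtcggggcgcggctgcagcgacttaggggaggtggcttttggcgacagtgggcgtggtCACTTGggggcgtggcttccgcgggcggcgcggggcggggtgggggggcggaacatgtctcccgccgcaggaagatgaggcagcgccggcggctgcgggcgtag

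The *Id2* E-box begins 196 bases before the start site and reads CAGCTG, and that of *Tcf3* begins 54 bases before it and reads CACTTG. The *Prdm1* window holds a pair of E-boxes, 168 and 87 bases before the start, the 3 *Tcf12* windows hold 1, 2 and 1, and the *Id3* window has no match. CANNTG occurs in 72.3% and CAGCTG in 16.3% of the 32851 mouse windows, so such a match is common. The annotated *Id2* gene (chromosome 12, 25093799 to 25097140, minus strand) extends further upstream than this start site, and *Tcf3* lies on chromosome 10 from 80409514 to 80433647, minus strand.

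*Prdm1*, which encodes the repressor that opposes BCL6, gave 46 counts in all 12 libraries. Of these, 36 came from libraries labelled BCL6-insufficient (exact 95% Poisson interval 25.2 to 49.8) and 10 from libraries labelled wild-type (4.8 to 18.4), which cover counting error only. The repeats of the mice labelled BCL6-insufficient held 4 and 23, 7 and 0, and 1 and 1 counts, and those labelled wild-type 0 and 0, 0 and 3, and 5 and 2. A single library thus held 63.9% of the counts of its group, and without it 13 counts in 5 libraries stood against 10 in 6. In an edgeR fit that kept every gene with at least 1 count in any mouse, the log2 fold change was 1.75 with an adjusted p of 0.386, and the exact two-sided permutation test over mice gave 0.3. A count of 0 allows up to 0.661 CPM in the library labelled BCL6-insufficient and 0.544 to 0.601 CPM in the 3 labelled wild-type, so no difference was detectable at this depth.

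Plasma cells and regulatory T cells are rich in *Prdm1*, although a sort of CXCR5hiPD-1hi OT-II T cells should remove plasma cells. In the library with 23 counts *Sdc1*, *Jchain* and *Mzb1* were at 0 and *Tnfrsf17* had 5 counts, while the 6 plasma cell markers summed to 120 normalized CPM against 62.4 to 116 in the other libraries, mostly from *Xbp1*. The 6 regulatory T cell markers summed to 441 against 214 to 410 in the others. *Ikzf2* (189, others up to 186) and *Nrp1* (144, others up to 131) were above every other library. *Foxp3* was at 4.42, within the 2.31 to 7.22 of the others, and *Il2ra*, *Ctla4* and *Tnfrsf18* were also within the range of the others. By mouse these sums did not overlap between the labels, at 368 to 430 under BCL6-insufficient and 252 to 321 under wild-type. Among all tested genes, 34.4% did not overlap by mouse. Of the 6 markers 2 were called higher, *Ikzf2* and *Nrp1* (edgeR adjusted p = 0.00204 and 0.00277), beside 9.17% of all tested genes. *Foxp3*, the defining factor, lay the other way without passing, at means of 3.59 under BCL6-insufficient and 5.38 under wild-type with mice that did not overlap (log2 fold change -0.58, edgeR adjusted p = 0.314). Their part in the *Prdm1* counts was not tested.

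Genes around the members were read from lists that were set with earlier results of these data known, and the counts below describe them without a test of any list. Of 14 tested E protein target genes, 2 fell, *Cxcr5*, the receptor for the follicular chemokine CXCL13, and *Cd4*, and the other 12 did not pass, a share near that of all tested genes, of which 18.0% were called and 8.82% were called lower. *Cxcr5* was at 225 to 260 normalized CPM per mouse labelled BCL6-insufficient and 307 to 330 per mouse labelled wild-type (log2 fold change -0.40, edgeR adjusted p = 0.00476) and passed in 20 of 20 alternatives, while *Cd4* (log2 fold change -0.34, adjusted p = 0.0446) passed in 10. The call of *Cd4* was lost without BCL6-insufficient mouse 2 (adjusted p = 0.135) or 3 (0.195), without wild-type mouse 1 (0.228) or 3 (0.0673), and without the library that held most *Prdm1* counts (0.0751). Both genes are also used to identify the sorted cells, *Cxcr5* by the sort gate itself. The median of the list was -0.173, against 0.011 over all tested genes.

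Among 8 tested partners and co-regulators of E proteins, the acetyltransferase genes *Ep300* and *Crebbp* rose, with log2 fold changes of 0.54 and 0.52 (edgeR adjusted p = 0.00667 and 0.0154), beside 9.17% of all tested genes called higher. Neither passed in the limma fits on TPM, *Ep300* did not pass in technical repeat 1 alone, and *Crebbp* also lost its call in technical repeat 2 alone, without BCL6-insufficient mouse 1 (adjusted p = 0.124) and without wild-type mouse 2 (0.103) or 3 (0.0611). The list's median was 0.314. *Ascl2*, a helix-loop-helix factor that drives *Cxcr5*, had 3 counts in all libraries, and *Id1* and *Id4* had 14 and 2, so none of them was tested. Of 18 tested inputs to the Id and E genes 1 passed, beside 18.0% of all tested genes. It was *Egr2*, a factor induced by T cell receptor signals that activates *Id3*. It fell from 14.4 ± 4.59 to 6.64 ± 2.66 normalized CPM (SD, n = 3 mice, log2 fold change -1.12, edgeR adjusted p = 0.0123), but did not pass without wild-type mouse 2 (adjusted p = 0.1), without BCL6-insufficient mouse 2 (0.0656), without the library that held most *Prdm1* counts (0.057) or in technical repeat 2 alone.

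Of 27 other tested helix-loop-helix genes, 3 rose and 4 fell, where 9.17% of all tested genes were called higher and 8.82% lower. *Hif1a*, the oxygen-regulated factor, fell with non-overlapping mice, 90.5 to 96.2 against 133 to 146 normalized CPM (log2 fold change -0.56, edgeR adjusted p = 0.000612). *Srebf2*, which drives sterol synthesis, and *Max*, the partner of MYC, fell by 0.54 and 0.53 on the log2 scale (adjusted p = 0.00719 and 0.0142), with *Max* lost without wild-type mouse 1 (0.0509), and *Usf2* rose by 0.71 (adjusted p = 0.00695), a call lost without BCL6-insufficient mouse 1 (0.0576), in technical repeat 1 alone and in both TPM fits. *Srebf2* did not pass in technical repeat 2 alone or in the TPM fits, nor *Max* in either repeat alone. The list's median was -0.074.

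Around *Prdm1*, 1 of 16 tested inducers rose and 3 fell, few genes to set against the 18.0% called among all tested genes. *Irf4*, which can drive *Prdm1*, stood at 43.3 to 74.8 normalized CPM per mouse labelled BCL6-insufficient and 30.3 to 40.3 per mouse labelled wild-type (log2 fold change 0.70, edgeR adjusted p = 0.00947). The call of *Irf4* was lost without BCL6-insufficient mouse 1 (adjusted p = 0.14) and without wild-type mouse 3 (0.0555), and also in technical repeat 2 alone and in both TPM fits. The receptor chain of interleukin-21, *Il21r*, and the kinase of cytokine receptors, *Jak3*, fell by 0.75 and 0.73 on the log2 scale (adjusted p = 0.00059 and 0.000413), and *Il6ra*, the interleukin-6 receptor, by 0.38 (adjusted p = 0.0173). The call of *Il6ra* was lost without BCL6-insufficient mouse 3 (adjusted p = 0.0596), wild-type mouse 1 (0.0886) or the library that held most *Prdm1* counts (0.0955), in technical repeat 2 alone and in both TPM fits, and that of *Il21r* in technical repeat 1 alone. Of the 7 tested repressors of *Prdm1*, *Bcl6* rose and *Ets1*, *Lef1* and *Tcf7* fell, with log2 fold changes of -0.65, -0.60 and -0.27 (adjusted p = 8.22e-05, 0.000606 and 0.0216). *Lef1* and *Tcf7* are Wnt-linked factors that favor early Tfh cells, and *Tcf7* did not pass without wild-type mouse 1 (adjusted p = 0.0715) or 3 (0.0504), in either technical repeat alone, or with GC and length trends removed. *Bach2*, which shares the repression of *Prdm1*, was at 3.64 and 4.02 normalized CPM (adjusted p = 0.871).

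Of 12 tested genes that Blimp-1 represses, *Bcl6* rose and *Cxcr5* and *Tcf7* fell, all counted above. In this list and those of the co-repressors, the PRDM family and the effector genes, 3 of 12, 2 of 9, 1 of 9 and 2 of 8 tested genes were called, beside 18.0% of all tested genes (9.17% higher and 8.82% lower), and nothing is read from such small counts. Among 9 tested co-repressors of Blimp-1, the deacetylase *Hdac1* fell and the demethylase *Kdm1a* rose (log2 fold changes -0.53 and 0.60, edgeR adjusted p = 0.000737 and 0.00659). *Hdac1* passed in 20 of 20 alternatives, and *Kdm1a* lost its call in technical repeat 2 alone and in both TPM fits. *Prdm16* was the single gene called among 9 tested members of the PRDM family, at 7.87 to 10.3 against 1.73 to 4.21 normalized CPM per mouse (log2 fold change 1.48, adjusted p = 0.00512), and its call was lost in technical repeat 1 alone and in the TPM fits. Only 8 of 21 effector genes could be tested. *Runx3*, a factor of cytotoxic T cells, and *Nkg7*, a granule gene, rose with log2 fold changes of 0.47 and 1.54 (adjusted p = 0.0281 and 0.0494), but passed in only 12 of 20 and 6 of 19 alternatives. Over mice left out, the adjusted p reached 0.146 for *Runx3* (without wild-type mouse 3) and 0.394 for *Nkg7* (without BCL6-insufficient mouse 2), whose mice overlapped.

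**Figure D5:**
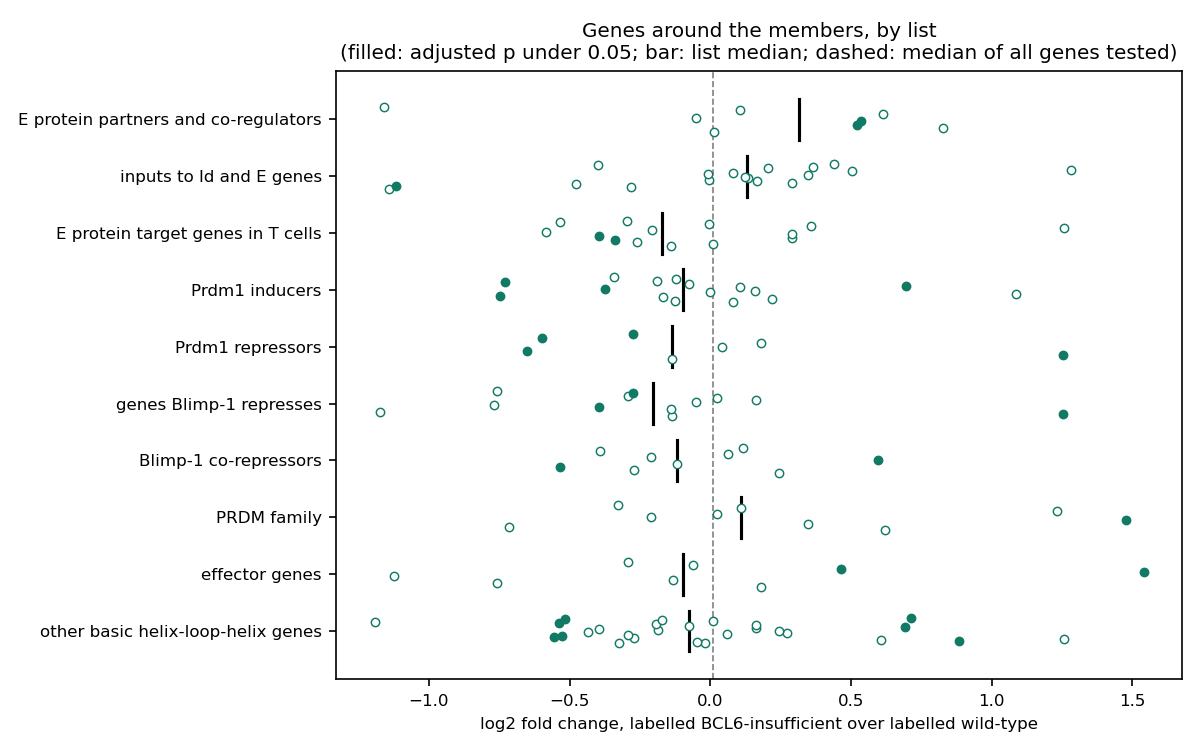
Log2 fold change (horizontal axis, labelled BCL6-insufficient over labelled wild-type) of every tested gene of the 10 lists around the members, filled where the edgeR adjusted p is under 0.05, with the list median as a bar and the median of all tested genes, 0.011, as a dashed line. List medians run from -0.205 to 0.314, and filled genes lie on both sides of 0 in 5 of the lists.

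Over the 12 libraries, the genes most like each member were sought among 8148 genes that reached 20 counts or more in each library, by Pearson's r of log2 normalized CPM. They were *Slc24a5* (0.89), *Grhl1* (0.88) and *Gm44709* (0.874) for *Id2*, and *Mef2d* (0.907), *Heatr5b* (0.879) and *Inpp1* (0.867) for *Id3*. For *Tcf3* they were *Tmed9* (0.948), *Mia2* (0.947) and *Vbp1* (0.944), and for *Tcf12* *Cd44* (0.916), *Tbc1d1* (0.906) and *Itm2a* (0.905). *Tcf4* was closest to *Cenpm* (0.874), *Rfng* (0.851) and *Ppp2r3d* (0.831). Between members, *Id2* and *Tcf3* had r of -0.65 over the 12 libraries and -0.18 after the label means were removed. *Tcf3* and *Tcf12* had 0.55 and -0.36 by the same measures, while *Id3* and *Tcf3* had 0.49 and 0.61. Libraries of 1 mouse share its cells and are not independent, so these values are descriptions.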

How the data were processed

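RNA was measured by SMART-Seq2 in the 12 Tfh libraries described above. The authors aligned reads to mm10 (GRCm38) with HISAT2 2.2.1 and counted them per gene with HTSeq, and these deposited counts are not normalized. They also deposited TPM for 24530 genes, used only in 2 alternatives. Relative to *Id3*, those TPM imply gene lengths of 138 for *Tcf12* and 145 for *Tcf4*, against 119 and 153 in gene span and 8.67 and 15.3 in exonic length, so TPM were not compared between genes. The annotation release and strandedness are not given in the sources used here.

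Counts of the technical repeats were summed per mouse, and 3 against 3 mice were compared (R 4.3.3, edgeR 4.0.16 with TMM and filterByExpr, quasi-likelihood test, Benjamini-Hochberg adjustment over 12719 genes). edgeR rather than DESeq2, which the study names, was the main test. Gene lengths came from GENCODE M21, with 23822 symbols matched by name and 212 otherwise. Alternatives were DESeq2 1.42.0, limma 3.58.1 (voom, and log2 TPM with a pseudocount of 1 or 0.1), other scalings and filters, single repeats, the replicate block, GC and length offsets (mgcv 1.9.3), leaving out each mouse, and, chosen after seeing the data, leaving out the library with most *Prdm1* counts. Intervals of counts are exact Poisson at 95%, and floors are 3 counts. In a simulation with 3 against 3 mice, the edgeR test found 71% of 200 genes that had been changed 2-fold. Far fewer genes were changed there than the 2288 called here, so the share found in these data may differ.

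The members and gene lists were chosen with earlier results of these data known. The genes named were the members, *Bcl6*, up to 4 called genes of smallest p per list, *Cxcr5*, *Ascl2*, *Irf4* and *Bach2*, the 3 genes most like each tested member, and markers of other cell types. *Id1* and *Id4* were named outside this rule after their values were seen.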

Additional observations from a re-analysis of the deposited data

Results flagged for a closer look

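In 1 of 12 groups of 6 libraries tested, 1 library stood far from the others. It was the library of BCL6-insufficient mouse 1, technical repeat 2, with 2.82 normalized CPM of *Prdm1* from 23 counts, against a median of 0.298 and a range of 0 to 1.01 in the other 5 libraries of its label. The gap divided by the range was 0.641, beyond Dixon's 95% critical value, which chance exceeds in about 1 of 20 groups. Without that library 3 members were called in place of 2, as *Tcf12* passed.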

How the results depend on the processing

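The 5 tested members and the counts of called genes were recomputed in 20 alternatives, and the cause of a changed value was not tested unless the alternative uses fewer samples. *Prdm1* entered only 2 fits. DESeq2 gave it a log2 fold change of 1.79 with no adjusted p. *Tcf3* kept its call in all 20. *Id2* kept its direction in all 20 and lost its call in technical repeat 1 only (0.90, adjusted p = 0.0576), technical repeat 2 only (0.70, 0.174) and limma on log2(TPM + 1) (0.665, 0.127) or log2(TPM + 0.1) (0.69, 0.129). Leaving out each mouse gave *Id2* 0.655 to 1.04 (adjusted p = 0.00849 to 0.0878), *Id3* -0.17 to 0.046, *Tcf3* -1.05 to -0.86, *Tcf4* 0.01 to 0.29 and *Tcf12* -0.41 to -0.26 (adjusted p = 0.0675 to 0.202). *Id3* turned positive in technical repeat 2 only (0.035), with GC and length trends removed (0.031), with these removed in the replicate block (0.019) and without BCL6-insufficient mouse 3 (0.046), and *Tcf4* turned negative with GC and length trends removed (-0.116), also in the block (-0.10). *Tcf12* passed under voom (-0.353, adjusted p = 0.0288), DESeq2 (-0.362), a filter of at least 1 count in any mouse (-0.368, 0.0471) or 10 counts in every library (-0.347, 0.0432), GC and length trends removed (-0.518, 0.00425), also in the block (-0.52, 0.00179), and without the library with most *Prdm1* counts (-0.407, 0.0423). Members called fell from 2 to 1 in either repeat alone and both TPM fits, and ranged from 1 to 2 over mice left out. Genes called fell from 2288 to 1059 and 1446 in repeats 1 and 2, to 1305 and 1260 in the TPM fits, and to 1424 to 1972 over mice left out, lowest without wild-type mouse 3. Of the calls 51% were higher, against 29.9% and 29.7% in the TPM fits, whose medians over all genes were -0.068 and -0.111. Mice that share a number had correlations of their deviations of 0.085, -0.028 and 0.025, against -0.083 to 0.06 for the other pairs. Such correlations over all genes cannot tell whether the numbers pair the mice in part of the genes. The replicate block gave 2579 called genes and *Tcf12* at -0.358 (adjusted p = 0.0345), and 3 called members with GC and length trends removed as well as without.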
